A study of Mus musculus with 9 samples.

Results

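A set of 10 genes that mark macrophages was followed in cochleae of mice at postnatal day 3 (P3): Cd68, Csf1r, Cx3cr1, C1qa, C1qb, C1qc, Aif1, Tyrobp, Lyz2 and Ptprc. They were chosen by name, as genes of macrophages and microglia that could mark a response to dying hair cells, and were found by Ensembl identifier among the 51912 genes listed for the HET and WT libraries. The study holds 9 RNA-seq libraries in 3 groups of 3: HOM, Pou4f3(Δ/Δ); HET, Pou4f3(Δ/+); and WT, Pou4f3(+/+). The transcription factor POU4F3 is made in hair cells; Δ is its mutant allele, and what was deleted was not given in the sources. The animals compared in the design text are heterozygous mutants and littermates of the wild type, and the tissue is given only as cochlear. Groups follow the sample titles. The labels conflict, since a second label, the genotype characteristic, disagrees with the title in all 9 samples: samples titled HOM carry the HET genotype there, those titled HET carry WT and those titled WT carry HOM. Every direction below therefore rests on the titles. Pou4f3 RNA was lowest in the libraries titled HOM, with 5.92, 1.36 and 9.39 FPKM in HOM 1 to 3. It was at 24.21, 21.74 and 25.56 FPKM in HET, and at 25.02, 24.49 and 26.97 FPKM in WT. HET and WT overlapped, so Pou4f3 sets the HOM titles apart but does not tell HET titles from WT titles. FPKM is a fragment count scaled to the exon length of the gene and to the depth of the library.

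Macrophages are resident immune cells of the cochlea, found among the fibrocytes, the neurons, the blood vessels and the sensory epithelium. They survive on signals through the receptor that Csf1r encodes, take up dead cells and debris into lysosomes, and make complement proteins. In the inner ear they are known to gather near hair cells that die. The fractalkine receptor encoded by Cx3cr1 is widely used to label them.

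The recovered depth was 14318141 to 15751365 fragments in HOM libraries, 15547976 to 17406906 in HET and 14567146 to 17026593 in WT. The HOM libraries list 1137 genes, of which Cd68 is the only one of the 10; the other 9 were not analysed in HOM, and their level there is not known to be 0. HET 1 and WT 3 stood apart from the other 4 HET and WT libraries on the first principal component, which held 58.1% of the variance (scores -32.7 and -27.4, against 4.35 to 22.4). In these 2 libraries, transcripts of intermediate length were higher and long ones lower than in the other libraries of the same genotype. The RNA of several libraries also held transcripts of both sexes. Xist, made from the inactive X chromosome, was at 53.95, 107.88 and 56.88 FPKM in HET 1 to 3 and 0.08, 78.17 and 0.06 in WT 1 to 3, while the Y-linked Ddx3y was at 4.79 FPKM or more in each of the 6. Xist was thus high in every HET library but near 0 in WT 1 and WT 3. The sexes were not balanced between HET and WT, and sex cannot be told apart from genotype in that comparison. The labels do not say how many animals gave each library, so p values measure the spread between these libraries.

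Start-site windows of 3 of the 10 genes are shown: Cd68 is the only one measured in HOM, and C1qb and C1qc are neighbours in the C1q cluster. Each runs from 250 bases before to 50 after the start, read 5′ to 3′ on the gene's strand, from RefSeq on GRCm38.p6. Capitals mark the motif GAGGAA on either strand, the purine-rich core bound by PU.1, the macrophage transcription factor encoded by Spi1. The Cd68 window is chr11:69666121-69666420 on the minus strand, C1qb is chr4:136886151-136886450 on the minus strand and C1qc is chr4:136892865-136893164 on the minus strand.
Cd68: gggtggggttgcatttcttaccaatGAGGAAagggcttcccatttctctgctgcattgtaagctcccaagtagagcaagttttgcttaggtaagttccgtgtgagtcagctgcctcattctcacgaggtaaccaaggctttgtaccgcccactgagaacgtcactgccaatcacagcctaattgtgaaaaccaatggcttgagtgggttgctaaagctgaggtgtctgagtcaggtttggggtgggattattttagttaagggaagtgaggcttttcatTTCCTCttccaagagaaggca
C1qb: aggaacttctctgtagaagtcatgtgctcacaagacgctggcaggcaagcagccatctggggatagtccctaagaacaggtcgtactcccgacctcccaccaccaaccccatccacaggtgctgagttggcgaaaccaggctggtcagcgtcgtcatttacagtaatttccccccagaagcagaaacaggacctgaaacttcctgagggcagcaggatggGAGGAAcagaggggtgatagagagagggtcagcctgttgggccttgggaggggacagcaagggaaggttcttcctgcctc
C1qc: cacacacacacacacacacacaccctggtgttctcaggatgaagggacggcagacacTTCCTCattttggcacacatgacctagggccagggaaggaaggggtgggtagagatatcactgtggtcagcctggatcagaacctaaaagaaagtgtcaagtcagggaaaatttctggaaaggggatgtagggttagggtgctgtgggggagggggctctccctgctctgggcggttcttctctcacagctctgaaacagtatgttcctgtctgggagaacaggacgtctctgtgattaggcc
Windows were matched for 7 of the 10 genes: Cd68, Cx3cr1, C1qb, C1qc, Aif1, Lyz2 and Ptprc. The motif, searched on both strands, was present in 5 of these 7, with first bases 225 before and 30 after the start in Cd68, 30 before it in C1qb, 193 before it in C1qc, 7 before it in Aif1 and 158 before it in 1 of 2 Ptprc windows. The windows of Cx3cr1 and Lyz2, which are not shown, held no match. All 3 windows shown hold the motif, so they do not represent the 7. Of all 32851 windows of this length, 28.3% held at least 1 match. A match describes letters in the window and is not evidence of binding.

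The 3 chains of C1q, the protein that starts the classical complement pathway, are encoded by C1qa, C1qc and C1qb, which lie side by side on chromosome 4 in GRCm38 (chr4:136895917-136898803, chr4:136889804-136893065 and chr4:136880129-136886187, all on the minus strand, with 3 exon blocks each). C1qa was at 11.19, 9.94 and 7.05 FPKM in HET 1 to 3, and at 9.55, 8.78 and 12.59 FPKM in WT 1 to 3. C1qb was at 9.74, 8.40 and 8.04 FPKM in HET, and at 8.05, 7.19 and 10.21 FPKM in WT. HET 3 was the lowest library for C1qa and WT 3 the highest for both genes, and the genotypes overlapped. C1qc was at 5.46, 3.90 and 4.36 FPKM in HET, and at 4.35, 4.30 and 5.61 FPKM in WT, again with overlap and again high in HET 1 and WT 3. The fitted change in HET against WT on the log2(FPKM + 1) scale was -0.13 (SE 0.191, 95% interval -0.59 to 0.33) for C1qa. It was 0.05 (SE 0.137, interval -0.28 to 0.37) for C1qb and -0.05 (SE 0.143, interval -0.39 to 0.29) for C1qc.

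C1q protein is built from equal numbers of its 3 chains, and the RNA levels of the chains were compared within each library. C1qb stood at 0.870, 0.845 and 1.14 times the FPKM of C1qa in HET 1 to 3, and at 0.843, 0.819 and 0.811 times in WT 1 to 3. C1qc stood at 0.488, 0.392 and 0.618 times C1qa in HET, and at 0.455, 0.490 and 0.446 times in WT. The highest ratio of each kind was in HET 3, the library with the lowest C1qa. The C1qc level is sensitive to the length used for scaling. The exon length of 1931 bp used for C1qc includes transcripts that are not coding, and coding transcripts alone span 1203 bp. If every fragment came from those, C1qc would be at 8.76, 6.26 and 7.0 FPKM in HET and 6.98, 6.90 and 9.0 FPKM in WT, closer to C1qb.

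Cd68 encodes a glycoprotein of the lysosome and late endosome that is abundant in phagocytes. The gene lies at chr11:69664213-69666153 on the minus strand of GRCm38, with 6 exon blocks. Cd68 was at 7.40, 6.31 and 6.26 FPKM in HOM 1 to 3, at 6.63, 4.89 and 3.99 FPKM in HET 1 to 3, and at 4.72, 5.13 and 5.78 FPKM in WT 1 to 3. All 3 HOM libraries lay above all 3 WT libraries, while HET 1 lay inside the HOM range. The means were 6.66 ± 0.644 FPKM in HOM, 5.17 ± 1.34 in HET and 5.21 ± 0.535 in WT (SD, n = 3 each).

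Cd68 rose in HOM against WT by 0.30 on the log2(FPKM + 1) scale (SE 0.0895, 95% interval 0.09 to 0.52, limma adjusted p = 0.0211), a 1.23-fold difference on that scale. The listed genes set the background: 93.1% of the 1109 tested in HOM against WT were called, 27.7% as higher, and the 3 libraries of each genotype did not overlap for any of them. All listed genes thus differ from WT in these same libraries, so the call for Cd68 is not independent evidence that it differs. The exact two-sided permutation p was 0.1, the smallest that 3 against 3 libraries allow. Each of the 1109 genes reaches that value, since their groups do not overlap, so it adds nothing for Cd68. The call was lost without HOM 1 (adjusted p = 0.0558), without WT 1 (0.0654) and without WT 2 (0.0610), with changes of 0.23, 0.24 and 0.29, and the adjusted p over all 15 alternatives ran between 0.00291 and 0.0654. Median-ratio and upper-quartile scaling, which moved the median change of the listed genes to -0.03 and to -0.002, against -0.22 as deposited, gave Cd68 0.49 and 0.52. The scaling factors came from the listed genes alone, a selected set, so these larger values are not added evidence for Cd68.

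Against HET, Cd68 in HOM differed by 0.33 (SE 0.160, 95% interval -0.06 to 0.72, limma adjusted p = 0.130) and did not pass the threshold, in a comparison where 44.5% of 1090 listed genes did. It passed without HET 1 (0.49, adjusted p = 0.0247), with upper-quartile scaling (0.54, 0.0335) and with array weights (0.55, 0.00916), and its adjusted p over 15 alternatives ran between 0.00916 and 0.320. The upper-quartile factors here too came from the listed genes alone. Both comparisons use the same HOM libraries. In HET against WT the change was -0.03 (SE 0.166, interval -0.43 to 0.37). The recovered fragments behind these values were 133, 121 and 124 in HOM, 136, 107 and 78 in HET, and 101, 94 and 110 in WT. Scaled to the mean depth of each group, the variance of these fragments was 1.17 times the mean in HOM, 7.17 times in HET and 1.08 times in WT, where counting error alone gives about 1. The spread between HET libraries was larger than counting error.

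**Figure D1:**
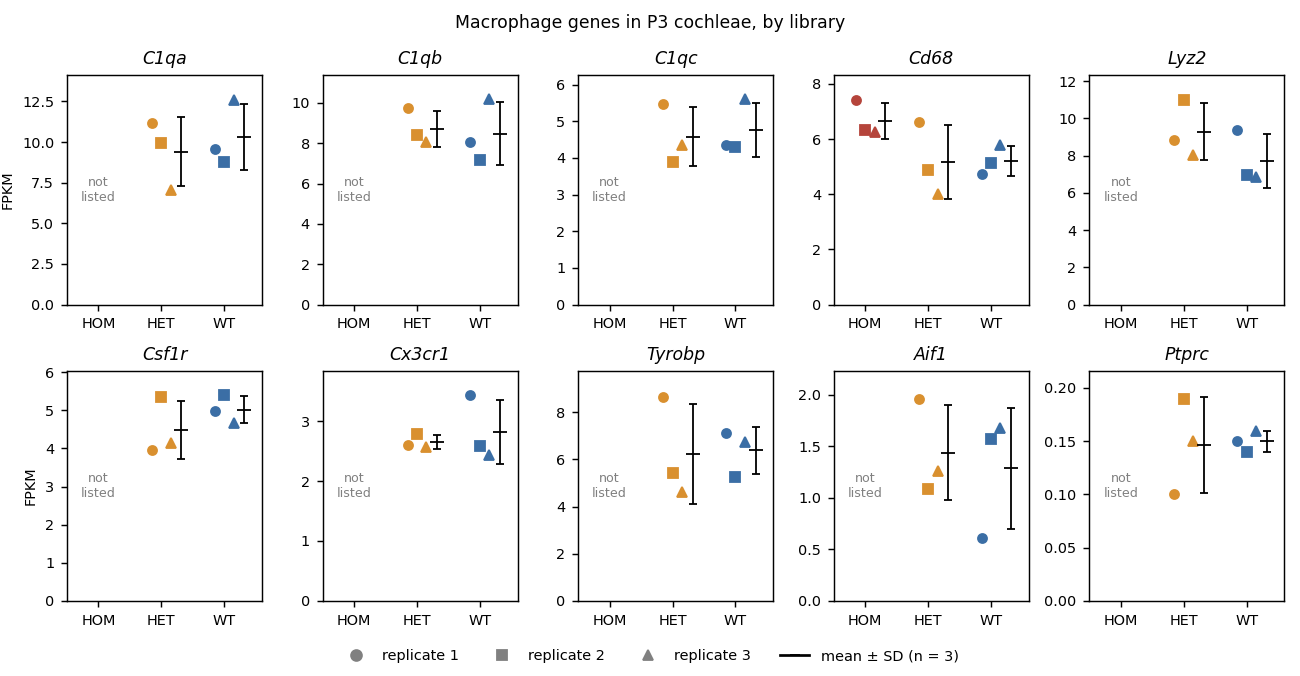
FPKM of the 10 macrophage genes in each library, with HOM, HET and WT from left to right; marker shapes give the replicate, and the bar beside each group is the mean ± SD (n = 3). HOM values exist for Cd68 only, with 7.40, 6.31 and 6.26 FPKM above all WT libraries, and in every panel the HET and WT libraries overlap.

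Marker genes of other cell types were also among those called in HOM. Of all listed genes tested against WT, 65.4% were called lower and 27.7% higher. Of the hair cell list, 9 of 10 genes were listed in HOM and all 9 were called lower against WT: Otof, Lhfpl5, Loxhd1, Pou4f3, Gfi1, Tmc1, Myo7a, Atoh1 and Myo6. Their changes ran between -4.36 for Otof, the calcium sensor of the hair cell synapse, and -0.54 for Myo6, a motor protein gene. Of the 9 supporting cell and otic genes, 3 were listed and all 3 were called higher: the gap junction genes Gjb2 (0.27) and Gjb6 (0.29), and the matrix gene Epyc (0.45). The change of Cd68, 0.30, lay between those of Gjb6 and Epyc. In whole cochlear tissue, a change in the share of a cell type and a change of RNA per cell cannot be told apart.

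Csf1r and Cx3cr1 encode receptors of the macrophage surface. Csf1r binds colony stimulating factor 1 and interleukin 34 (chr18:61100598-61132149, plus strand, 24 exon blocks). Csf1r was at 3.96, 5.34 and 4.15 FPKM in HET 1 to 3, and at 4.99, 5.40 and 4.67 FPKM in WT 1 to 3. The groups overlapped, with the lowest 2 libraries both HET, and the change was -0.14 (SE 0.119, 95% interval -0.43 to 0.14). Csf1r shares 873 of its 5774 exon bases with Hmgxb3 on the opposite strand, and no source used here states whether counting used strand, so reads of the 2 genes there cannot be told apart. Hmgxb3 was at 7.32, 9.52 and 8.56 FPKM in HET and 8.53, 9.37 and 7.41 FPKM in WT.

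Cx3cr1, the fractalkine receptor (chr9:119901616-120069879, minus strand), was at 2.6, 2.79 and 2.56 FPKM in HET 1 to 3, and at 3.43, 2.58 and 2.44 FPKM in WT 1 to 3. WT 1 was the highest and WT 3 the lowest, so that the HET libraries lay within the WT range. The change was -0.06 (SE 0.124, 95% interval -0.35 to 0.24). With fragments scaled to the mean depth of each group, their variance was 0.449 times the mean in HET and 7.21 times in WT.

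Tyrobp encodes DAP12, an adaptor that carries signals from activating receptors such as TREM2 (chr7:30413760-30417585, plus strand). Tyrobp was at 8.63, 5.43 and 4.63 FPKM in HET 1 to 3, and at 7.13, 5.25 and 6.74 FPKM in WT 1 to 3. Both the highest and the lowest library were HET, and the change was -0.06 (SE 0.215, 95% interval -0.57 to 0.46). Aif1 encodes IBA1, an actin-bundling protein used to stain macrophages and microglia (chr17:35170991-35176068, minus strand). Aif1 was at 1.96, 1.09 and 1.26 FPKM in HET, and at 0.61, 1.57 and 1.68 FPKM in WT. WT 1 was the lowest library, HET 1 the highest, and the highest stood at 3.21 times the lowest, the widest ratio among the 10 genes. Aif1 rested on 16 to 49 recovered fragments a library. The exact 95% Poisson interval, which covers counting error only, was 1.45 to 2.59 FPKM in HET 1 and 0.351 to 0.996 FPKM in WT 1. Its change of 0.11 had the widest interval of the 9 tested genes (SE 0.244, -0.47 to 0.70).

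Lyz2 encodes lysozyme, which cuts bacterial cell walls and is made by macrophages, monocytes and neutrophils (chr10:117277331-117282321, minus strand). Lyz2 was at 8.84, 11.0 and 8.02 FPKM in HET 1 to 3, and at 9.38, 6.94 and 6.83 FPKM in WT 1 to 3. HET 2 was the highest library and WT 3 the lowest, but WT 1 lay above HET 1 and HET 3. The change was 0.24 (SE 0.155, 95% interval -0.13 to 0.61), the largest among the 9 tested genes. The neighbouring paralog Lyz1 was at 0.19, 0.05 and 0.05 FPKM in HET and 0.05, 0 and 0 FPKM in WT; no source used here states how reads shared by the 2 genes were counted.

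Ptprc encodes CD45, the phosphatase found on nearly all white blood cells (chr1:138062861-138175708, minus strand, 32 exon blocks). It was at 0.10, 0.19 and 0.15 FPKM in HET 1 to 3, and at 0.15, 0.14 and 0.16 FPKM in WT 1 to 3, which lay within the HET range. Ptprc was under 1 FPKM in every library and was not tested with limma; its exact permutation p was 0.9. Its scaling length of 18313 bp exceeds the 5119 bp of exon in coding transcripts. If every fragment came from those, the level would be between 0.358 and 0.680 FPKM, still the lowest of the 10 genes in each library.

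No macrophage gene passed the test between HET and WT. Of the 10 genes, 9 passed the filter of 1 FPKM in at least 3 of the 6 libraries, and 0 of these 9 were called, with an adjusted p of 0.9998 for each (limma). The background was 0% of 15391 genes called; 266 (1.73%) had an unadjusted p under 0.05 and 914 (5.94%) had groups that did not overlap, and none of the 9 was among either. Changes were above 0 for 3 genes (Lyz2, Aif1 and C1qb) and below 0 for 6, with a median of -0.05, where all genes tested had a median of 0.001 and quartiles of -0.08 and 0.07. A limma-voom fit of recovered fragments also called 0 genes, and so did a fit without HET 1 and WT 3. With array weights, which weigh HET 1 and WT 3 down, 12.7% of genes were called, and still 0 of the 9. The intervals bound what these libraries could show. The upper ends lay between 0.14 for Csf1r and 0.70 for Aif1, and the lower ends between -0.59 for C1qa and -0.13 for Lyz2. The summed FPKM of all 10 genes was 59.1, 53.0 and 44.2 in HET 1 to 3, and 52.4, 47.3 and 56.7 in WT 1 to 3. The sums averaged 52.1 ± 7.49 FPKM in HET and 52.1 ± 4.72 in WT (SD, n = 3 each).

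Levels scaled to exon length put C1qa, C1qb and lysozyme at the top and CD45 at the bottom. Over the 6 HET and WT libraries C1qa averaged 9.85 ± 1.92 FPKM (SD, n = 6), C1qb 8.61 ± 1.14 and Lyz2 8.50 ± 1.59. C1qa exceeded C1qb in 5 of 6 libraries and C1qb exceeded Lyz2 in 4 of 6, differences within the spread between libraries. Tyrobp followed at 6.30 ± 1.48 FPKM, below Lyz2 in each of the 6. Cd68 (5.19 ± 0.914), Csf1r (4.75 ± 0.603) and C1qc (4.66 ± 0.698) were not separated: Cd68 exceeded Csf1r in 2 of 6 libraries, and Csf1r exceeded C1qc in 3 of 6. Cx3cr1 (2.73 ± 0.359), Aif1 (1.36 ± 0.480) and Ptprc (0.148 ± 0.0293) stood in that order in each of the 6 libraries. Parts of this order depend on the length used for scaling. If every fragment came from coding transcripts, Tyrobp would be at 9.64 FPKM in HET 1 and 7.53 FPKM in WT 3. Lyz2 was lower there, at 8.84 and 6.83 FPKM. C1qc would then lie above Cd68 and Csf1r in every library, and Aif1 at 2.62 FPKM in HET 1, beside 2.6 FPKM for Cx3cr1. 
Over all genes tested, differences between libraries of the same genotype varied with transcript length. Among 1806 tested genes with at least 1000 and under 2000 bp of exon, the median difference of HET 1 from the mean of HET 2 and HET 3 was 0.30 in log2(FPKM + 1), and that of WT 3 from WT 1 and WT 2 was 0.18. Among 7457 genes of 4000 bp or more the medians were -0.11 and -0.04. Of the 9 tested genes, 6 lay above 0 in both libraries, all with under 2000 bp of exon, and 3 lay below 0 in both. In HET 1 the difference was 0.68 for Tyrobp (667 bp), 0.49 for Cd68 (1257 bp), 0.45 for Aif1 (1532 bp), 0.38 for C1qa (1040 bp), 0.33 for C1qc (1931 bp) and 0.22 for C1qb (1088 bp). The longer Cx3cr1 (4505 bp) and Csf1r (5774 bp) differed by -0.03 and -0.20. Lyz2 (1316 bp) went against this order, with -0.08 in HET 1 and -0.21 in WT 3. In WT 3 the difference was 0.42 for C1qa, 0.40 for Aif1, 0.38 for C1qb, 0.31 for C1qc, 0.20 for Cd68 and 0.12 for Tyrobp, against -0.13 for Csf1r and -0.21 for Cx3cr1. Over the 9 genes the Spearman rho of length with the difference was -0.667 in HET 1 and -0.40 in WT 3. It was 0.15 in HET 2, 0.883 in HET 3, 0.05 in WT 1 and 0.75 in WT 2. Over 15357 tested genes it was -0.404 in HET 1 and -0.354 in WT 3, and 0.176 to 0.344 in the other libraries. All these values share the same libraries, and genes are not independent replicates. The part of length in the spread of the macrophage genes was not tested. Removing the trend with exon length from each library left 0 genes called in HET against WT. The main fit also called 0, so that count cannot show the part of length. With the trend removed, the SE was lower for Cd68, Aif1, Csf1r, Tyrobp, C1qa, C1qb and C1qc. It went from 0.143 to 0.0841 for C1qc and from 0.119 to 0.109 for Csf1r. The SE was higher for Cx3cr1 (0.124 to 0.132) and Lyz2 (0.155 to 0.204).

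**Figure D2:**
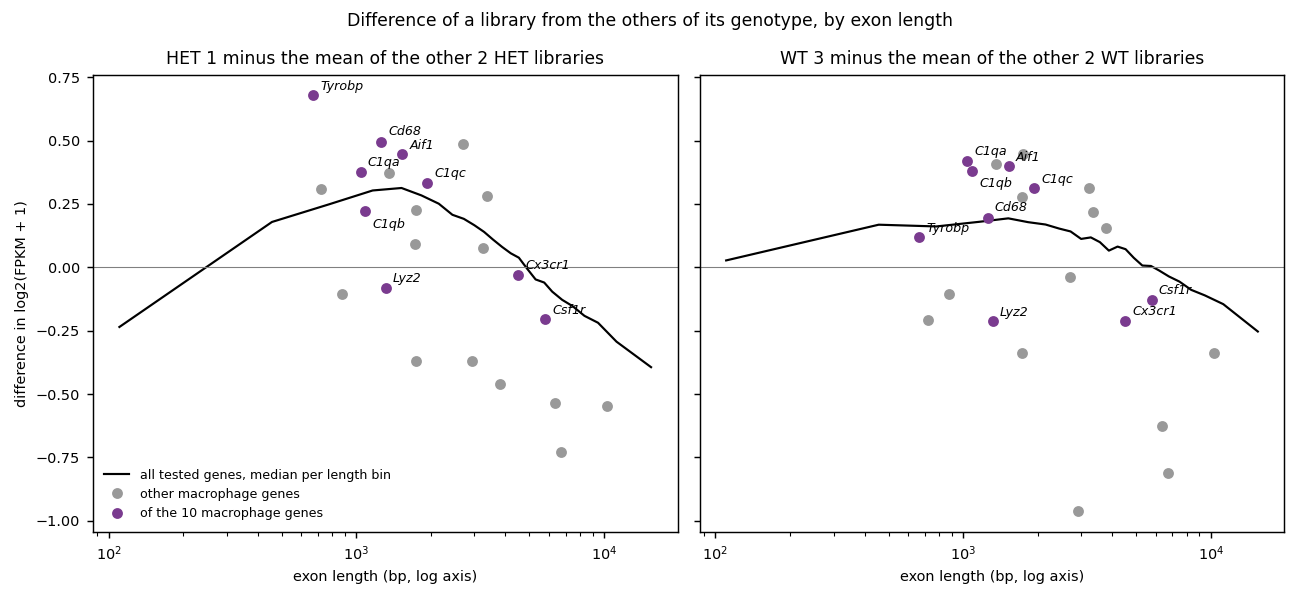
Difference of HET 1 (left) and WT 3 (right) from the mean of the other 2 libraries of the same genotype, in log2(FPKM + 1), against exon length in bp on a log axis; the line is the median of all tested genes per length bin, purple points are the 9 tested macrophage genes of the set and grey points 14 others. The short genes Tyrobp, Cd68 and C1qa lie above 0 in both panels, and Csf1r lies below 0 in both.

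The 14 further macrophage genes tested split in HET 1 and WT 3: 5 lay above 0 in both libraries, 6 below 0 in both and 3 on opposite sides. The 6 below were Mrc1, F13a1, Lyve1, Stab1, Fcgr3 and Fcer1g, named after their values were seen. Mrc1, the mannose receptor CD206, was at 3.50, 6.99 and 4.31 FPKM in HET 1 to 3, and at 5.27, 4.85 and 2.93 FPKM in WT 1 to 3. F13a1, a coagulation factor subunit made by tissue macrophages, was at 1.70, 4.24 and 2.82 FPKM in HET, and at 4.01, 3.39 and 1.67 FPKM in WT. HET 1 was the lowest HET library and WT 3 the lowest WT library for both genes. Lyve1, a hyaluronan receptor of perivascular macrophages and lymphatic vessels, differed by -0.37 in HET 1 and -0.96 in WT 3, and the scavenger receptor gene Stab1 by -0.55 and -0.34. The Fc receptor genes Fcgr3 (1736 bp) and Fcer1g (874 bp), which are short, differed by -0.37 and -0.11 in HET 1 and by -0.34 and -0.10 in WT 3. The exons of the other 4 span 6371 bp (Mrc1), 6739 bp (F13a1), 2919 bp (Lyve1) and 10288 bp (Stab1). Lyve1, at 2919 bp, lay below the medians of genes near its length, which were 0.17 in HET 1 and 0.11 in WT 3. Mrc1 differed by -0.53 and -0.62, where genes near its length had medians of -0.10 and -0.01. F13a1 differed by -0.73 and -0.81, where the medians were -0.13 and -0.04. For Stab1 the nearest length bins had medians of -0.22 and -0.29 in HET 1, and -0.11 and -0.15 in WT 3. These long genes thus also lay below the medians of genes near their length.

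Of 28 further macrophage genes, 14 passed the filter, and limma called 0 of them in HET against WT. Their changes were above 0 in 6 and below 0 in 8, with a median of -0.03. Laptm5, a lysosomal membrane gene of blood cells, had the highest change (0.20). Spi1, which encodes PU.1, had the lowest (-0.25), with 1.36, 0.85 and 0.53 FPKM in HET and 1.00, 1.55 and 1.2 FPKM in WT, which overlap. The summed level of the 28 was 45.5 to 62.3 FPKM in HET and 49.9 to 53.9 FPKM in WT. The scavenger receptor Cd163 was listed at 0, 0.47 and 0.28 FPKM in HET and at 0.41, 0.34 and 0.07 FPKM in WT.

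Markers that separate microglia from other macrophages showed no call between HET and WT. P2ry12, the purine receptor of resting microglia, was at 0.66 to 1.18 FPKM in HET and 0.86 to 1.22 FPKM in WT. Of 10 genes in the list 6 were tested and limma called 0, with all 6 changes below 0 and a median of -0.06. Tmem119 was at 6.48, 5.68 and 5.70 FPKM in HET, below 7.08, 7.32 and 6.77 FPKM in WT (-0.21, unadjusted p = 0.0387, limma adjusted p = 0.9998). Sall1, a transcription factor of microglia that other tissues also express, was called lower in HOM (-0.87 against WT and -0.85 against HET). Olfml3, a secreted protein gene, was called lower in HOM against WT (-0.70), and its difference from HET was -0.39 (limma adjusted p = 0.261); whether the 2 differences differ was not tested.

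The ligands of the 2 receptors were also measured, and are named here after their values were seen. Csf1 was at 2.32, 2.48 and 2.59 FPKM in HET, and at 2.88, 2.78 and 2.52 FPKM in WT. Il34, the second ligand of the CSF1 receptor and the gene with the lowest change in its pathway list, was at 1.22, 1.2 and 0.79 FPKM in HET, below 1.47, 1.44 and 1.45 FPKM in WT. Its change was -0.25 (SE 0.134), which did not pass the test (limma adjusted p = 0.9998). The groups did not overlap, which was so for 914 (5.94%) of all 15391 genes tested. Cx3cl1, which encodes fractalkine, was at 4.38, 4.65 and 4.76 FPKM in HET, and at 5.40, 4.86 and 4.49 FPKM in WT. In the CSF1 pathway list, 5 of 9 genes were tested and 0 called, with the adaptor Grb2 the most abundant at 28.51 to 30.94 FPKM in HET and 30.11 to 31.71 FPKM in WT. The highest change there was 0.08 for the ubiquitin ligase Cbl.

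Chemokine, complement and clearance genes showed no call between HET and WT either. Of 14 chemokine genes 5 were tested, and the changes ran between -0.21 for Cxcl12, the ligand of CXCR4, and 0.39 for Ccl12, which draws monocytes, with 2.28, 1.39 and 2.16 FPKM in HET and 0.98, 1.66 and 1.11 FPKM in WT. Of 14 complement genes other than C1q, 8 were tested, with a median change of -0.01; the lowest was -0.19 for Cfp (properdin) and the highest 0.18 for Cd59a, which protects cells from complement. The C1 inhibitor gene Serping1 was at 8.03, 8.30 and 8.74 FPKM in HOM, at 7.01, 7.27 and 6.31 FPKM in HET, and at 7.71, 7.68 and 7.76 FPKM in WT. It was called higher in HOM against HET (0.25, limma adjusted p = 0.0287) and not against WT (0.10, 0.0686). Of 16 genes for the uptake of dying cells 14 were tested, with a median of -0.03. Gas6, a ligand that bridges dying cells to TAM receptors, was at 21.78, 13.85 and 25.72 FPKM in HOM, at 40.36, 47.49 and 46.42 FPKM in HET, and at 47.84, 44.81 and 41.43 FPKM in WT. Gas6 fell in HOM by 1.13 on the log2(FPKM + 1) scale against WT (limma adjusted p = 0.00686) and by 1.13 against HET (0.00967). Elmo1, which drives engulfment, fell by 0.28 against WT (0.0127), while its change of -0.18 against HET did not pass (limma adjusted p = 0.0820). For HET against WT, Mfge8 had the lowest change in this list (-0.15) and Abca1 the highest (0.21).

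Lysosomal genes, which all cells express, summed to far more than the macrophage genes. The 12 genes summed to 1133 to 1278 FPKM in HET and 1224 to 1280 FPKM in WT, led by Psap, the precursor of the saposins, at 364.27 to 401.74 FPKM in HET and 399.33 to 412.24 FPKM in WT. All 12 were tested and 0 called, with 3 changes above 0 and 9 below and a median of -0.09. The highest change was 0.08 for Lipa, an acid lipase gene, which at a mean of 8.84 FPKM over the 6 libraries was at the level of C1qb and Lyz2.

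Several defining markers of other white blood cells were near 0, while other genes of the same lists were not. The monocyte markers Ly6c2 and Plac8 were at most 0.02 and 0.24 FPKM in HET and at most 0.02 and 0.62 FPKM in WT. The 8 genes of the monocyte list summed to 73.9 to 86.1 FPKM in HET and 69.0 to 89.5 FPKM in WT, most of it Fn1, the fibronectin gene, which connective tissue also expresses, at 53.01 to 76.01 FPKM in HET and 53.98 to 78.24 FPKM in WT. In the same list S100a4, a calcium-binding protein gene of many cell types, was at 12.59, 2.26 and 1.87 FPKM in HET and 3.42, 5.17 and 6.23 FPKM in WT. The part of monocytes in these sums was not tested. The neutrophil gene Ly6g, not among the first of its list, was at most 0.12 FPKM in HET and 0.07 FPKM in WT. The first-listed S100a8 was at 0.58 to 1.15 FPKM in HET and 0.30 to 0.86 FPKM in WT. S100a9 was at 0.66 to 1.85 FPKM in HET and 0.68 to 1.71 FPKM in WT. Prtn3 was at 0.97 to 1.95 FPKM in HET and 1.60 to 1.90 FPKM in WT. The neutrophil and granulocyte list of 12 genes summed to 3.44 to 5.96 FPKM in HET and 4.44 to 5.32 FPKM in WT, and the mast cell list of 7 to 5.97 to 6.83 FPKM in HET and 6.80 to 8.62 FPKM in WT, most of it Kit, which melanocytes also express. The T cell gene Cd3e was at 0.14 to 0.32 FPKM in HET and 0.03 to 0.16 FPKM in WT. Lck, of the same lymphocyte list, was at 1.65 to 2.86 FPKM in HET and 1.77 to 2.17 FPKM in WT. The lymphocyte sum was mostly Ighm, the heavy chain of immunoglobulin M, at 6.50, 28.18 and 16.81 FPKM in HET and 11.65, 5.10 and 6.76 FPKM in WT. Osteoclasts, which share the macrophage lineage and express Csf1r and Tyrobp, were represented by bone-resorption genes. Acp5 was at 1.57, 1.08 and 0.44 FPKM in HET, below 2.58, 6.22 and 1.95 FPKM in WT (-1.10, SE 0.373, unadjusted p = 0.0230, limma adjusted p = 0.9998). Ctsk was at 25.76, 19.65 and 20.89 FPKM in HET and 20.24, 32.87 and 26.45 FPKM in WT. All 5 tested genes of the 12 osteoclast genes had changes below 0. Their part in the values of Csf1r and Tyrobp was not tested.

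**Figure D3:**
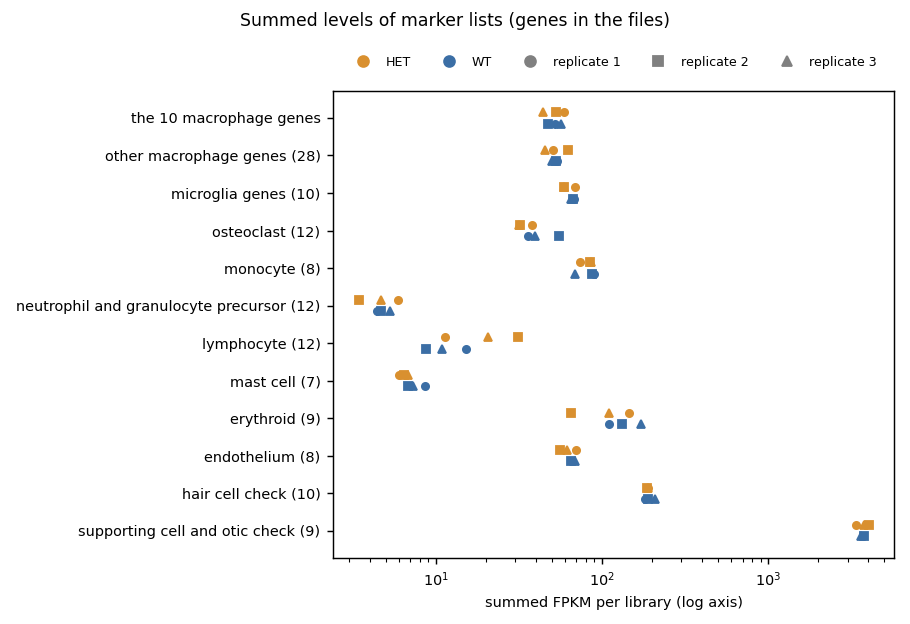
Summed FPKM per library, on a log axis, for the 10 macrophage genes and for lists of other markers (number of genes in brackets), with HET above WT in each row and marker shapes giving the replicate. The 10 macrophage genes sum to 44.2 to 59.1 FPKM in HET and 47.3 to 56.7 FPKM in WT, above the neutrophil, lymphocyte and mast cell lists and below the monocyte list in every library, while the osteoclast list lies above them in WT 2 (55.2 FPKM).

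The 8 genes whose pattern over the 6 HET and WT libraries was most like the mean of the 9 tested macrophage genes were picked by Pearson r among 1256 genes with a range of at least 1 log2 unit. These were Gm24888 (r 0.990), Gm5514 (0.988), Gm45834 (0.988), Gm12254 (0.968), Gm32899 (0.963), Mirlet7c-1 (0.961), Cisd3 (0.956) and Gm29216 (0.954), over 6 libraries. All were highest in HET 1 and second highest in WT 3. Gm24888 is a small nucleolar RNA, Mirlet7c-1 a microRNA gene and 5 are pseudogenes; Cisd3, the only coding gene, was at 17.28, 10.42 and 8.03 FPKM in HET, and at 11.0, 11.29 and 13.81 FPKM in WT.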

How the data were processed

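The deposited values are FPKM per gene and library, calculated by the authors and rounded to 2 decimals. The submitters' processing notes name DESeq2 and the mm8 build without their roles; no aligner, counter or annotation is named in the sources used here. Per the labels' protocols, either poly(A) isolation or depletion of rRNA came before random priming. Of 51912 gene identifiers, 51633 matched GENCODE M21 (GRCm38), which gave coordinates and exon lengths.

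Because the values are FPKM and not counts, groups were compared with limma 3.58.1 (R 4.3.3), with a mean-variance trend, on the log2(FPKM + 1) scale, in genes that reached 1 FPKM in 3 or more of 6 libraries. Each fit held 2 groups; p values are two-sided and adjusted by Benjamini-Hochberg over all genes tested, with a threshold of 0.05. The step was tested on simulated data. Genes listed in HOM are a selected set, so adjustment there covers those genes alone. Depth was recovered from the steps of low FPKM values: 99.3% to 100% of low values in genes of up to 600 bp came out whole within 0.1, a check that is not independent, since the step was chosen for it. Counting intervals are exact Poisson at the 95% level.

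The 10 genes and all lists were chosen with earlier results of these data known. From each other list, the genes named are those called, the most abundant, and those with the highest and lowest change; first-listed markers of other cell types are given by level. A few genes this rule selects are not reported here. Alternatives covered pseudocount, filter, scaling, trend, array weights, replicate block and each library left out. The main fits did not pair libraries by replicate number. Whether the numbers pair littermates could not be told from the values.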

Additional observations from a re-analysis of the deposited data

How the results depend on the processing

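None of the 9 tested genes was called in HET against WT in any alternative fit (lowest limma adjusted p = 0.0802). Counted once per gene and setting, these fits gave 158 results. Except with array weights, each fit called 0 or 1 of all genes tested, so the lack of calls there says little about these 9. In 143 of the 158 results the direction was kept and in 15 it turned. Aif1 gave -0.15 with array weights. With 1 library left out, the changes ran between -0.19 and 0.11 for Cd68, -0.12 and 0.24 for Aif1, -0.28 and 0.10 for Tyrobp, -0.25 and 0.045 for C1qa, -0.16 and 0.056 for C1qc, -0.054 and 0.17 for C1qb, and -0.13 and 0.056 for Cx3cr1; Csf1r and Lyz2 kept their sign. The log2 ratio of summed levels was -0.0006, and -0.10 to 0.10 over its alternatives, within 1 SD (0.176).

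The number of genes called in HET against WT was 0 and stayed 0 in all alternatives except array weights (1960, or 12.7%, none of them a macrophage gene of the set) and leaving out 1 library (0 to 1). Array weights gave HET 1 a weight of 0.136, WT 3 of 0.304 and WT 2 of 8.0. In HOM against WT 1032 genes were called, against 632 with a minimum of 5 FPKM, 639 with median-ratio scaling, 628 with upper-quartile scaling and 588 to 864 without 1 library. In HOM against HET 485 were called, against 272 with the 5 FPKM minimum and 116 to 431 without 1 library, with 116 without HET 3 and 142 without HET 2. The stricter minimum tests fewer genes; beyond that the cause was not tested. Libraries with the same replicate number in HET and WT correlated at -0.519, 0.286 and -0.471. HET 1 and WT 3, which stand apart, correlated at 0.641. The correlations include that difference between libraries, so they cannot show whether the numbers pair littermates. With the replicate block 0 genes were called in HET against WT, 909 in HOM against WT and 304 in HOM against HET. Cd68 then had a limma adjusted p of 0.0454 in HOM against WT and 0.0830 against HET. The fits without both HET 1 and WT 3, with the exon-length trend removed and with limma-voom on recovered fragments were chosen after seeing the data.

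Depth limits Aif1 and Ptprc most, at 16 to 49 and 30 to 61 fragments a library, and 3 libraries a group limit every interval.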

Other observations

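Interferon-responsive genes and inflammatory cytokines, which macrophages raise when activated, showed no call between HET and WT in limma. Of 10 interferon genes 7 were tested, with a median change of -0.03; the antiviral tether gene Bst2 was at 16.69, 13.04 and 13.60 FPKM in HET and 11.78, 15.89 and 20.21 FPKM in WT. The lowest change was -0.24 for Isg15 and the highest 0.12 for Ifit1. Of 15 cytokine and sensor genes 5 were tested. Il18 was the most abundant, at 12.36, 9.86 and 8.92 FPKM in HET and 11.40, 9.79 and 12.57 FPKM in WT, and Tlr2, a receptor for bacterial lipoproteins, had the highest change (0.14), with 5.65, 5.76 and 5.98 FPKM in HET above 5.09, 5.15 and 5.2 FPKM in WT (unadjusted p = 0.0875, limma adjusted p = 0.9998). Il1b was at most 0.15 FPKM and Tnf at most 0.14 FPKM in HET and WT; both are named here after their values were seen.

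Genes of dividing cells followed the same 2 libraries. The 8 cell cycle genes summed to 31.0, 18.0 and 16.4 FPKM in HET 1 to 3 and to 19.7, 21.2 and 29.3 FPKM in WT 1 to 3, and 0 of 8 were called.

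Red blood cell and vessel genes were present beside the macrophage genes. The erythroid genes summed to 65.2 to 146 FPKM in HET and 111 to 171 FPKM in WT. Hbb-bs, a beta globin gene, was at 34.76, 25.11 and 35.23 FPKM in HOM, at 75.77, 34.79 and 55.28 FPKM in HET, and at 66.09, 72.85 and 79.79 FPKM in WT, and was called lower in HOM against WT (-1.19, limma adjusted p = 0.00156). The 8 endothelial genes summed to 56.0 to 69.5 FPKM in HET and 64.7 to 68.9 FPKM in WT, with 6 of 7 tested changes below 0, and Tie1 was called lower in HOM against WT (-0.44, 0.0160). Of the other lists, Alas2, the first enzyme of heme synthesis in red cells (-0.39, adjusted p = 0.0240), Kit, a growth factor receptor gene (-0.35, 0.0183), and Nfatc1, a transcription factor of osteoclasts and other cells (-0.20, 0.0310), were also called lower in HOM against WT, among genes listed for a difference. Against HET these 5 genes did not pass in HOM: the changes and limma adjusted p were -0.73 and 0.0762 for Hbb-bs, -0.21 and 0.201 for Tie1, -0.20 and 0.248 for Alas2, -0.26 and 0.0796 for Kit, and -0.15 and 0.141 for Nfatc1.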
